A study of Mus musculus with 816 samples.

Results

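Nlrp3, Nlrc4, Aim2, Mefv, Pycard, Casp1, Casp4, Casp8 and Gsdmd code for the parts of the inflammasome and of pyroptosis, the lytic form of cell death that inflammasomes start. These 9 genes were taken by name, not by their values, from the 45581 genes listed for microglia cultures and the 29858 genes listed for microglia isolated from mice, and all 9 were found in both tables. Earlier results of these data were known when they were chosen. An inflammasome forms when a sensor protein meets a microbial or damage signal and gathers an adaptor and a protease around it. NLRP3, NLRC4, AIM2 and pyrin (the product of Mefv) are sensors, the ASC protein encoded by Pycard is the adaptor, and caspase-1 is the protease that cuts pro-IL-1β and pro-IL-18. Caspase-11, the mouse protein encoded by Casp4, binds cytosolic lipopolysaccharide (LPS) directly, caspase-8 links the pathway to apoptosis and to death receptors, and gasdermin D forms the pore through which the cell lyses. In macrophages the pathway is described as working in steps, in which a priming signal raises the amount of sensor and cytokine transcripts and a later signal, such as extracellular ATP, sets off assembly of the proteins. RNA shows the transcripts and not the assembly.

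The cultures were primary microglia from neonatal mouse brain, bought from a commercial supplier, of unstated sex, grown in 96-well plates and stimulated 4 days after plating. The 784 cultures fell into 98 groups of stimulus and time, from 3 lots of cells and 10 plates: 63 cultures at 4 h, 418 at 24 h and 303 at 72 h. Those of 4 h came from 2 lots and 2 plates and those of 24 h from 3 lots and 7 plates. All cultures of 72 h came from 1 lot on 4 plates, so results of 72 h were not repeated across lots. Untreated cultures were available at 24 h (n = 40) and 72 h (n = 25) but not at 4 h, so the 4 h conditions were set against untreated cultures of 24 h and differ from them in time as well as in stimulus. LPS was given at 0.0001 µg/µl (LPS_hi) or 0.00001 µg/µl (LPS_lo), P3C (a ligand of TLR2, used at 0.001 µg/µl), polyIC (a double-stranded RNA mimic, 0.2 µg/µl), IFNa (0.0008 µg/µl), IFNb and IFNg (both 0.0001 µg/µl) and ATP (1000 µM) were each given alone. Other agents described below, also given alone, were TNFa (0.000004 µg/µl), IL4, IL10 and IL13 (each 0.00005 µg/µl), GMCSF (0.000005 µg/µl), s100B (0.00003 µg/µl), MPP (100 µM) and PA (150 µM). Nicotine (1000 µM) and norepinephrine (1 µM) were given alone at 4 h as well. The combinations described are LPS_hi with ATP or norepinephrine at 4 h, and LPS_hi with minocycline and LPS_lo with resveratrol at 24 h. At 72 h they are LPS_lo with IFNg, with IL4 or with IL4, IL10 and IL13 together, and TNFa with IFNg or PGE2. The labels give the dose of LPS or TNFa alone for these, and no order of addition. Microglia were also selected with CD11b beads from the brains of female C57BL/6 mice of 2 months, taken 4 h after an intraperitoneal injection of 2 mg/kg LPS (n = 4) or of PBS (n = 4), and from male C57BL/6 mice of 22 months (n = 13) or 2 months (n = 11). The labels call the mice of the aging comparison naive, while the column headers of 4 old and 4 young ones, and those of the LPS and PBS mice, carry the word vehicle. CD11b is also carried by neutrophils and monocytes. By the study's methods the mice were perfused to remove blood, and flow cytometry was used to check that isolated cells were mostly low in CD45, as microglia are.

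Expression is given as CPM, the reads of a gene scaled to a common library total, from 3′-end RNA sequencing. Depth ran from 1.00 M to 38.2 M mapped reads in cultures (median 4.67 M) and from 2.36 M to 7.78 M in mice. All 7 microglia markers checked had medians above 5 CPM in mice and 6 of 7 did in untreated cultures of 24 h, where the summed markers of neutrophils reached at most 9.18 CPM and those of T cells at most 6.79 CPM. Single genes of other lists were higher in the same cultures, with medians of 286 CPM for Itgax (dendritic cell list), 73.7 for Mrc1 (perivascular macrophages), 37.4 for S100a4 (monocytes), 32.6 for Mbp (oligodendrocytes) and 26.8 for Pecam1 (endothelial cells, up to 168), while the other genes of those 5 lists had medians under 5 CPM. Summed microglia markers were between 3551 and 9142 CPM in untreated cultures of 24 h and between 781 and 2694 CPM in LPS_hi cultures of 24 h, and whether this bears on the genes below was not tested. Differences were tested with limma on log2(CPM + 1), which understates the change of low genes. A gene is called here when its adjusted p over all genes was under 0.05 and its change at least 2-fold. In RNA of whole wells or of pooled cells, fewer cells of a type and less RNA per cell cannot be told apart.

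The genes lie on 7 chromosomes, and Casp1 and Casp4 are neighbours: in the mouse build GRCm38, Casp1 spans 5298517 to 5307265 and Casp4 5308828 to 5336783 on the plus strand of chromosome 9. Nlrp3 spans 59541568 to 59566956 on the plus strand of chromosome 11. Gsdmd lies on chromosome 15 (75862327 to 75867408), Nlrc4 on chromosome 17 (74425438 to 74459142), Mefv on chromosome 16 (3707218 to 3718097) and Pycard on chromosome 7 (127989708 to 127993867). Casp8 (58795374 to 58847503) and Aim2 (173350879 to 173466040) are both on chromosome 1. Casp8, Aim2, Pycard and Nlrc4 overlap another annotated gene (Gm37760, Cadm3, Gm45205 and CT033749.1), and reads of overlapping genes may have been shared between them. The 250 bases before 1 RefSeq start of each of 3 genes are printed, because Nlrp3 and Casp4 were the members that rose most after LPS and Casp1 is the neighbour of Casp4. Nlrp3 and Casp4 have 2 such windows each, and for each of them a window with an NF-kB match was the one printed. Capitals mark matches to the NF-kB consensus, and all 3 sequences are on the plus strand of GRCm38.p6 as RefSeq gives them.
Nlrp3, chr11:59541319-59541568: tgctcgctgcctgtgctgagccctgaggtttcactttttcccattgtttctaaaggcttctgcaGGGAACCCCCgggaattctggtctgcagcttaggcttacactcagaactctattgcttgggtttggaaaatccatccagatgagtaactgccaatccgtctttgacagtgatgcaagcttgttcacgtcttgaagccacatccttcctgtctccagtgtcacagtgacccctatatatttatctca
Casp4, chr9:5308599-5308848: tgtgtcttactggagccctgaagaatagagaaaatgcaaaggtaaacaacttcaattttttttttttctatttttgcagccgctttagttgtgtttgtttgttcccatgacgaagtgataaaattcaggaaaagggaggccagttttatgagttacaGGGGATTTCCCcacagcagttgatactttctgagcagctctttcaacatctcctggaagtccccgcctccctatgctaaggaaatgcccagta
Casp1, chr9:5298267-5298516: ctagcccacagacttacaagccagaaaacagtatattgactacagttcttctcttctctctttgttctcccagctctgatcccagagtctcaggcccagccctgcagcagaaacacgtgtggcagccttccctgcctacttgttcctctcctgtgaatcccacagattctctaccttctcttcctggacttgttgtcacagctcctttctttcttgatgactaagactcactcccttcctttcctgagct

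In the printed windows the NF-kB match lay 186 to 177 bases before the Nlrp3 start and, as 2 overlapping matches, 93 to 83 bases before the Casp4 start. The consensus was searched on both strands and was present in 1281 of 32851 promoter windows of this length (3.90%). The 8 members with a RefSeq window had 10 windows, of which 3 held a match, all of Nlrp3 or Casp4. Not every window of these 2 genes held one. Neither the interferon-stimulated element, searched as GAAA and GAAA with any 2 bases between and found in 2.98% of windows, nor the gamma-activated site, searched as TTC and GAA with any 3 bases between and found in 7.02%, was in the window of a member. A match is a run of letters and not a bound site.

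Without stimulus, 8 of the 9 genes were detected at both times. At 24 h the 40 untreated cultures had Nlrp3 between 2.44 and 55.7 CPM (median 31), Casp1 between 29.2 and 101 (median 62.4), Pycard between 17.5 and 64.2 (median 40.5) and Gsdmd between 3.54 and 45.1 (median 23.8). Casp8 ran from 132 to 978 CPM with a median of 480. The inducible protease Casp4 and the sensors Aim2 and Nlrc4 sat near the detection limit, at medians of 5.67, 4.79 and 5.29 CPM, with single cultures of Aim2 and Nlrc4 at 0. Part of this range lay between plates, since the median of the untreated wells of a plate ran from 8.43 to 42.8 CPM for Nlrp3, from 0.562 to 19.6 for Nlrc4 and from 34.5 to 43.8 for Pycard. At 72 h (n = 25) the medians were 20.3 CPM for Nlrp3, 88.3 for Casp1, 7.15 for Casp4, 35.9 for Pycard, 17.8 for Aim2, 25.5 for Gsdmd, 566 for Casp8 and 2.77 for Nlrc4. Mefv, the pyrin gene, had a median of 0 in untreated cultures of both times and stayed under the expression filter of every comparison. Its highest values were 24.1 CPM in 1 culture of 72 h with PA and 6.37 CPM in 1 LPS_hi culture of 24 h.

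After LPS_hi for 4 h, the earliest time sampled, Nlrp3 had the largest difference of the 8 members tested. Its lowest, median and highest values were 539, 639 and 1020 CPM in the 7 cultures given LPS_hi for 4 h. Every one of these was above every untreated culture, a 30.2-fold difference on the log2(CPM + 1) scale (log2 difference 4.91 ± 0.33 SE, adjusted p = 5.91e-25), and it was 4.50 with plate in the fit. Casp4, for the LPS-binding caspase-11, also separated fully, with 25.8, 44.3 and 59.6 CPM after LPS_hi (log2 difference 2.72 ± 0.39, adjusted p = 6.52e-09). Among the 12752 genes tested 7.22% were called higher and 32.3% lower, and 4 of the 8 members tested were called higher and none lower. The other 2 were the sensors Aim2, with 5.66, 18.5 and 46.7 CPM and a log2 difference of 1.55 ± 0.47 (adjusted p = 0.00412), and Nlrc4, with 7.49, 11 and 43.5 CPM and 1.48 ± 0.51 (adjusted p = 0.0124, and 0.91 and not called with a pseudocount of 5). Both overlapped the untreated cultures, although all 7 LPS_hi cultures were above the untreated median. Casp1 and Gsdmd, the protease and the pore protein, moved less: Casp1 had 63.6, 105 and 157 CPM and Gsdmd 24.8, 43.6 and 69.6 CPM, log2 differences of 0.85 and 0.81 that passed the adjusted p (0.00269 and 0.0136) but not the 2-fold rule. With plate in the fit the Casp1 difference was 1.11 and was called, and after rescaling by median ratios both were called (1.18 and 1.14). The adaptor Pycard (log2 difference -0.11, adjusted p = 0.797) and Casp8 (0.06, adjusted p = 0.863) did not pass. The median log2 difference of the 8 members was 1.17 and that of all genes -0.65, which became -0.42 when libraries were rescaled by median ratios, so values are relative to a shifted background.

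**Figure D1:**
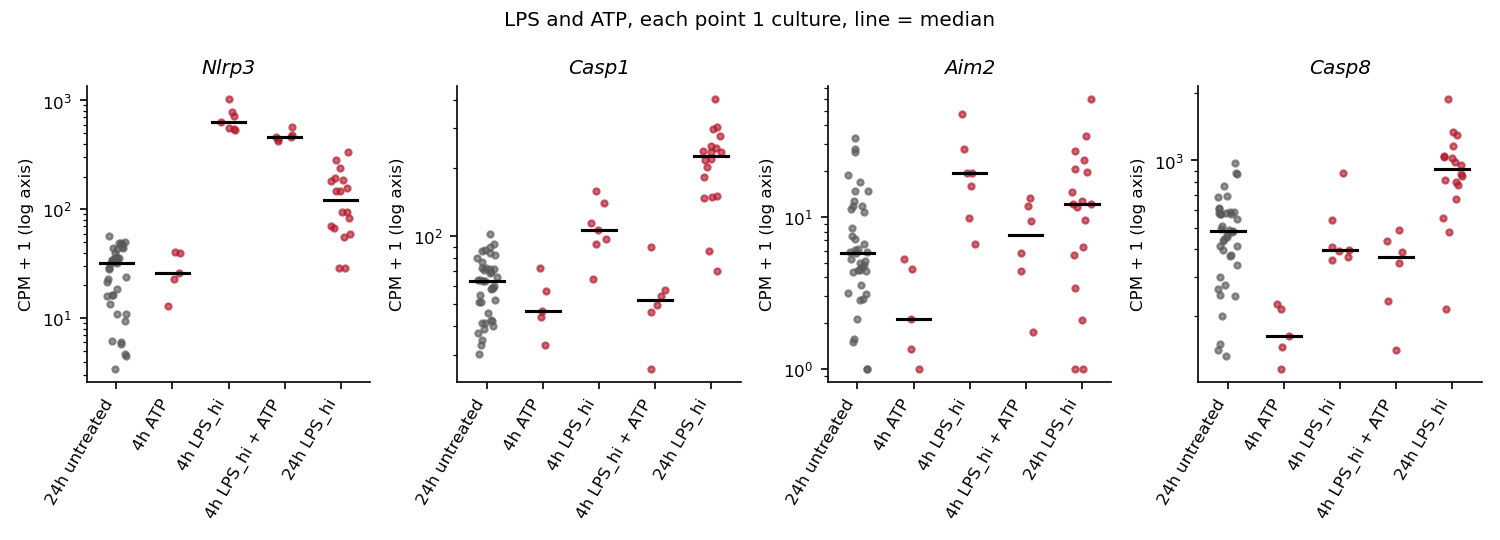
CPM + 1 on a log axis for Nlrp3, Casp1, Aim2 and Casp8 in untreated cultures of 24 h (grey) and in cultures given ATP, LPS_hi or LPS_hi with ATP for 4 h or LPS_hi for 24 h (red), with each point 1 culture and the line the median. Nlrp3 lies between 539 and 1020 CPM after LPS_hi for 4 h and between 27.7 and 337 CPM after 24 h, while Casp1 is higher at 24 h.

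At 24 h of LPS_hi, Casp1 and Gsdmd were called beside Nlrp3, Casp4 and Nlrc4. The 18 cultures had Nlrp3 at 27.7, 120 and 337 CPM (lowest, median, highest), with 15 of 18 above every untreated culture (log2 difference 2.30 ± 0.28, adjusted p = 7.27e-14). Casp1 reached 68.9, 226 and 402 CPM (log2 difference 1.77 ± 0.16, adjusted p = 1.45e-23), and Casp4 8.27, 29.2 and 49.6 CPM (2.06 ± 0.20, adjusted p = 1.91e-21). All 18 cultures were above the untreated median for both caspases, though the lowest of them still lay within the untreated range. Gsdmd, at 33.4, 58.7 and 89.3 CPM, differed by 1.21 ± 0.16 (adjusted p = 1.33e-12), and Nlrc4, at 2.41, 24.7 and 56.1 CPM, by 1.71 ± 0.33 (adjusted p = 1.88e-06). These 5 of 8 members were called higher, where 6.17% of 14433 genes were called higher and 12.8% lower, and with plate in the fit 5 were called as well. Pycard went the other way. Its values were 5.86, 19.9 and 34.7 CPM, all 18 below the untreated median of 40.5, and its log2 difference of -0.99 ± 0.16 (adjusted p = 3.42e-08) fell just short of 2-fold. Casp8 was also just short, at 0.97 ± 0.19 (adjusted p = 4.62e-06), and Aim2, at 0, 11.1 and 58.3 CPM, did not pass (0.66, adjusted p = 0.141). The median of the 8 members was 1.46 and that of all genes -0.21, or -0.11 after rescaling.

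The change between the times was tested directly, in a comparison added after the values were seen. Nlrp3 was 6.13-fold lower at 24 h than at 4 h of LPS_hi, with no overlap between the 18 and the 7 cultures (log2 difference -2.62 ± 0.38, adjusted p = 1.40e-08, and -2.32 with plate in the fit). It was the 1 member called, where 16.1% of 12911 genes were called higher and 5.1% lower at 24 h. Casp1 was higher at 24 h (0.92, adjusted p = 0.00576), as was Casp8 (0.91, adjusted p = 0.0125), and Pycard was lower (-0.88, adjusted p = 0.0408), all under 2-fold. On the 2 plates that held both times Nlrp3 was lower at 24 h, and with plate as a term Pycard (-1.10) and Aim2 (-2.10) were called too. All genes had a median of 0.35 in this comparison, 0.25 after rescaling. At 72 h (n = 13) Nlrp3 was the 1 member called, at 0, 71.2 and 107 CPM with 11 of 13 cultures above every untreated culture (log2 difference 1.76 ± 0.60, adjusted p = 0.0255), where 3.66% of 15469 genes were called higher. Its difference was 2.42 with plate in the fit, and the call was lost without a filter on low values (adjusted p = 0.0505), with only the 2 groups in the fit (0.0528) and by the exact rank-sum test with Bonferroni correction. Casp1, at 33.4, 158 and 340 CPM, differed by 0.52 (adjusted p = 0.0683) and Casp4 by 0.89 (adjusted p = 0.0844).

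The lower LPS dose also called most members. LPS_lo for 24 h (n = 7) raised Nlrp3 (21.2, 48.9 and 153 CPM, log2 difference 1.26), Casp1 (153, 198 and 277 CPM, 1.79), Casp4 (11.2, 16.6 and 36.9 CPM, 1.71), Gsdmd (45.4, 64.0 and 94.0 CPM, 1.37), Aim2 (6.85, 25.9 and 29.6 CPM, 1.58) and Casp8 (621, 877 and 1171 CPM, 1.04). Casp1 and Gsdmd did not overlap the untreated cultures, and the 6 members stand beside 5.27% of genes called higher. With plate as a term Casp8 lost its call (0.82) and Nlrc4 gained one (1.53), and with library pool as a term Aim2 lost its call (0.92). No member was called between the doses, in a comparison added after the values were seen. LPS_lo minus LPS_hi was -1.04 for Nlrp3, with a 95% interval of -1.91 to -0.17 and an adjusted p of 0.374, and 0.03 for Casp1 (-0.46 to 0.52), where 0.436% of genes were called in either direction. The Nlrp3 interval, which is not adjusted for the number of genes, lay wholly below 0, while the adjusted p did not pass. Within the 2 plates that held both doses Nlrp3 was lower with LPS_lo, by -1.22 and -0.15.

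P3C raised Nlrp3 at 24 h, whereas Casp1, Casp4 and Gsdmd were not called. Nlrp3 had 65.8, 102 and 222 CPM in the 6 P3C cultures, above all 40 untreated cultures (log2 difference 2.32 ± 0.43, adjusted p = 1.99e-06). Casp1 had 21.3, 40.2 and 88.1 CPM (-0.52, adjusted p = 0.085), Casp4 1.25, 5.06 and 10.4 CPM (-0.05, adjusted p = 0.923) and Gsdmd 10.8, 21.4 and 62.9 CPM (0.04, adjusted p = 0.918) and all 3 genes overlapped the untreated cultures. Pycard and Aim2 were called lower. Pycard fell to 4.39, 13.2 and 29.97 CPM (log2 difference -1.54 ± 0.25, adjusted p = 4.81e-08) and Aim2 to 0, 0.207 and 1.96 CPM (-2.11 ± 0.57, adjusted p = 0.0013). The Aim2 difference was -1.34 with plate and -1.11 with library pool as a term, and it was -0.98 and not called with a pseudocount of 5. All 6 P3C cultures lay below the untreated median for both genes. Of all genes, 3.98% were called higher and 23.3% lower, with a median of -0.40 (-0.27 after rescaling) that the lower values of members share. Summed neutrophil markers had a median of 18.8 CPM in P3C cultures and 1.38 CPM in untreated ones, with Ngp, Ly6g and Retnlg at 0 in every P3C culture, and their part in these results was not tested.

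Set directly against LPS_hi at 24 h, again in a comparison added after the values were seen, P3C gave lower Casp1 (log2 difference -2.29 ± 0.26, adjusted p = 2.21e-14), Casp4 (-2.11 ± 0.33, adjusted p = 1.77e-08), Aim2 (-2.77 ± 0.61, adjusted p = 0.000165), Gsdmd (-1.17 ± 0.26, adjusted p = 0.000179) and Casp8 (-1.35 ± 0.32, adjusted p = 0.000485). Of all genes, 12.2% were called lower and 3.03% higher. Nlrp3 differed by 0.02, with a 95% interval of -0.90 to 0.94, so a difference of somewhat under 2-fold in either direction remains possible. The 2 plates with both stimuli held 3 LPS_hi cultures, and within each of them Casp1, Casp4 and Gsdmd were lower after P3C. Casp8 lost its call with plate as a term (-0.99), and Aim2 was -1.45 with plate and -1.21, not called, with library pool as a term, where Casp1 was -1.45 and called. TNFa for 24 h (n = 7) also raised Nlrp3 alone among the members, to 29.8, 67.6 and 203 CPM (log2 difference 1.83 ± 0.41, adjusted p = 0.000424), where 2.06% of genes were called higher. Its Casp1 values of 18.6, 54.0 and 103 CPM overlapped those of untreated cultures almost wholly (-0.34, adjusted p = 0.443).

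**Figure D2:**
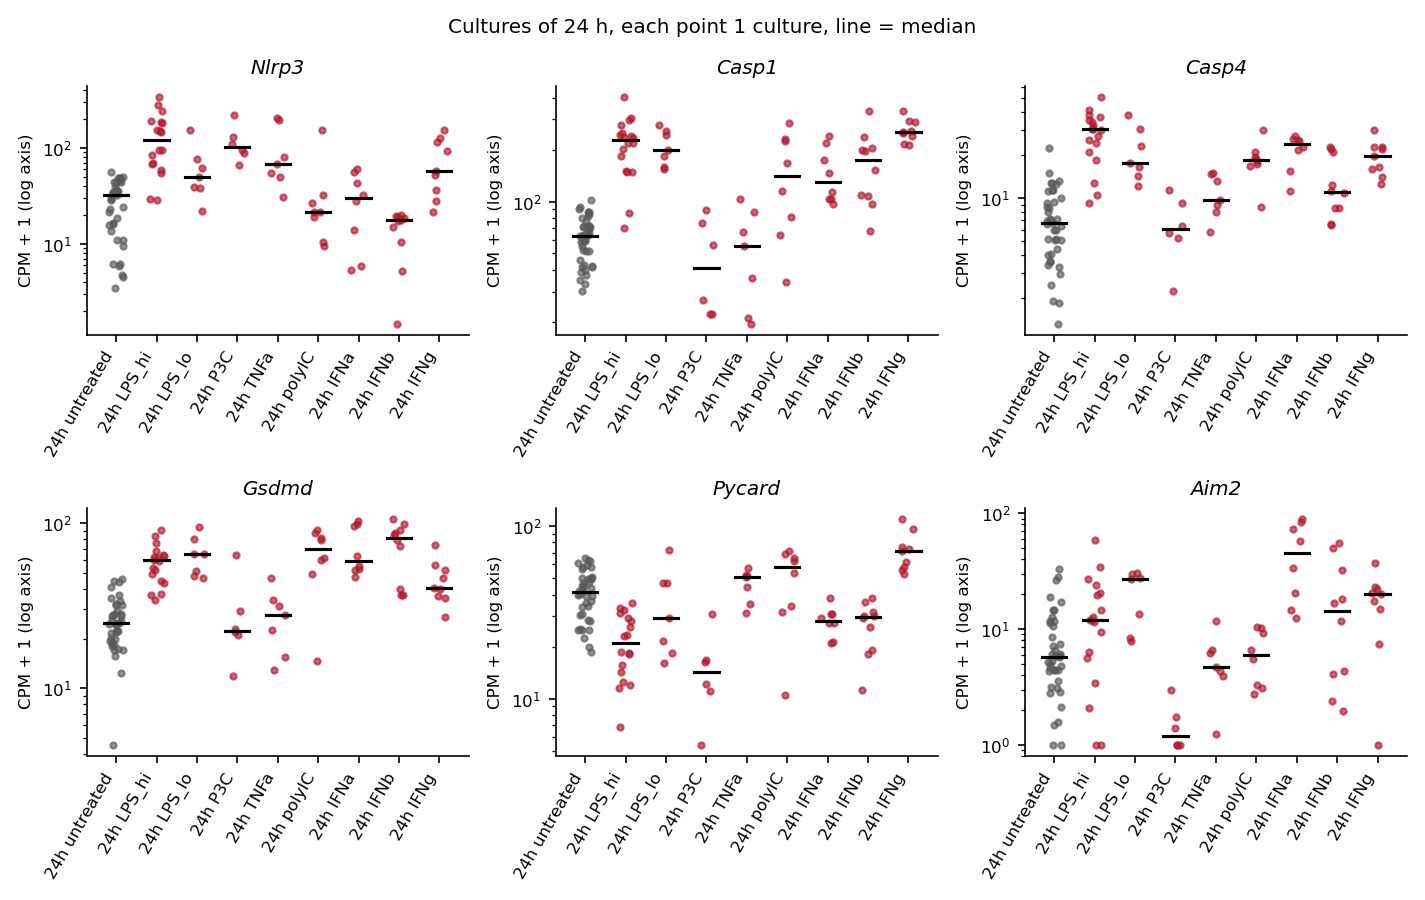
CPM + 1 on a log axis for 6 members in untreated cultures (grey) and 8 stimuli of 24 h (red), with each point 1 culture and the line the median. P3C cultures lie above all untreated cultures for Nlrp3, and IFNg cultures lie above all untreated cultures for Casp1.

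polyIC and the interferons each raised Casp1 and at least 1 of Casp4 and Gsdmd, and IFNg alone of the 4 had Nlrp3 called. For IFNa (n = 8) Gsdmd had 46.0, 58.2 and 102 CPM, above every untreated culture (log2 difference 1.49 ± 0.21, adjusted p = 6.65e-10). Casp1 had 95.7, 129 and 238 CPM (1.25, adjusted p = 4.06e-07), Casp4 10.2, 23 and 26.2 CPM (1.77, adjusted p = 4.83e-09) and Aim2 11.5, 44.4 and 88.5 CPM (2.64, adjusted p = 5.49e-06). AIM2 is a DNA sensor of the interferon-inducible HIN-200 family, and all 8 IFNa cultures were above its untreated median. These 4 members stand beside 4.06% of genes called higher and 11.5% lower. Nlrp3, at 4.34, 29.3 and 59.0 CPM, did not differ from untreated cultures beyond its spread (log2 difference -0.00, 95% interval -0.76 to 0.75).

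IFNb (n = 10) raised Casp1 (66.3, 173 and 333 CPM, log2 difference 1.38, adjusted p = 6.43e-10), Gsdmd (35.7, 80.6 and 105 CPM, 1.498, adjusted p = 7.42e-12) and Nlrc4 (6.88, 13.2 and 41.6 CPM, 1.55, adjusted p = 0.0019), beside 4.23% of genes called higher. The Nlrc4 difference was 0.97 and not called with a pseudocount of 5. Casp4 (0.93) and Casp8 (0.75) passed the adjusted p under 2-fold, and Aim2 (0.88, adjusted p = 0.185) was called with plate as a term (1.07). Nlrp3, at 0.471, 16.6 and 18.8 CPM, lay below the untreated median in 10 of 10 cultures (-0.92, adjusted p = 0.0483), a difference that was -0.58 and did not pass with plate in the fit, and Pycard was also lower (-0.63, adjusted p = 0.017). No member was called by limma between IFNa and IFNb, a comparison added after the values were seen, where 1.61% of genes were called in either direction. Those stimuli shared no plate, and the interval for Aim2 ran from 0.55 to 2.98 around a log2 difference of 1.76 (adjusted p = 0.113).

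IFNg (n = 9) was the 1 interferon with which limma called Nlrp3. Casp1 had 211, 252 and 335 CPM, 4.37-fold above untreated cultures with no overlap (log2 difference 2.13 ± 0.21, adjusted p = 4.83e-20), and Nlrc4 had 16.8, 32.9 and 43.4 CPM (2.55 ± 0.43, adjusted p = 1.57e-07, and 1.72 with plate in the fit). Casp4, at 11.5, 18.6 and 29.1 CPM, differed by 1.61 (adjusted p = 2.27e-08) and Nlrp3, at 20.7, 56.7 and 154 CPM, by 1.49 ± 0.37 (adjusted p = 0.000694). The Nlrp3 call was lost with the exact rank-sum test and Bonferroni correction (adjusted p = 1). The 4 limma calls stand beside 5.45% of genes called higher and 5.24% lower. Pycard was higher rather than lower, at 51.5, 70.1 and 109 CPM in 9 of 9 cultures above the untreated median (0.84, adjusted p = 0.00115). Gsdmd differed by 0.85 (adjusted p = 0.000462), and by 1.06 with plate in the fit, where it was called. Against IFNb, IFNg cultures were higher for Nlrp3 (log2 difference 2.41 ± 0.46, adjusted p = 1.33e-05) and Pycard (1.46 ± 0.27, adjusted p = 4.90e-06), without overlap in either gene, where 4.06% of genes were called higher and 2.59% lower. On the 2 plates that held both interferons, both genes were higher after IFNg.

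For polyIC (n = 8), 4 members were called higher beside 3.72% of genes: Casp1 (33.3, 140 and 286 CPM, log2 difference 1.05, adjusted p = 2.98e-05), Casp4 (7.69, 17.4 and 29 CPM, 1.53, adjusted p = 5.43e-07), Gsdmd (13.6, 69.2 and 89.4 CPM, 1.27, adjusted p = 1.72e-07) and Nlrc4 (8.89, 13.6 and 25 CPM, 1.49, adjusted p = 0.00688). The Nlrc4 difference was 0.90 and not called with a pseudocount of 5. The share of higher genes among all calls was 29.2% and rose to 45.1% when libraries were rescaled by median ratios. Nlrp3 had 8.40, 20.3 and 155 CPM (0.12, adjusted p = 0.883). The value of 155 CPM, and the lowest values of Casp4, Pycard and Gsdmd, came from 1 culture that stood apart from the other 7, and without it the same number of members, 4, was called. All stimuli of 24 h were set against the same 40 untreated cultures.

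ATP, the trigger of NLRP3 assembly in primed macrophages, changed few member transcripts by itself. After 24 h (n = 9) no member was called, by limma or by the exact rank-sum test with Bonferroni correction, where 1.86% of genes were called in either direction and 2619 of 14433 had an unadjusted limma p under 0.05. Nlrc4 had the largest log2 difference, 1.28 (adjusted p = 0.0671), which was 0.45 with plate in the fit. After 4 h the 5 cultures had Casp8 at 115, 145, 163, 215 and 226 CPM against a median of 480 in untreated cultures of 24 h. All 5 were below that median, although the lowest untreated cultures overlapped them (log2 difference -1.37 ± 0.31, adjusted p = 0.00182, with 4.32% of genes called lower). The difference was -0.93, and not called, with library pool as a term.

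For LPS_hi with ATP the question was whether the members differed from LPS_hi alone. The labels give no order of addition, so these cultures are not known to have been primed before ATP. Casp1 had 25, 51.1 and 89 CPM in the 6 cultures given LPS_hi and ATP for 4 h, and 63.6, 105 and 157 CPM in the 7 given LPS_hi. All 6 lay below the median of LPS_hi alone, with some overlap (log2 difference -1.07 ± 0.33, adjusted p = 0.0548). Within the 2 plates the difference was -1.16 and -1.03, and with plate as a term it was -1.02 and was called, so the call depends on the term while the size hardly does. Nlrp3 had 420, 458 and 564 CPM against 539, 639 and 1020 (log2 difference -0.51, 95% interval -1.41 to 0.39, adjusted p = 0.737). Aim2, at 0.735, 6.60 and 12.3 CPM, differed by -1.47 (adjusted p = 0.259), and Casp4, at 18.8, 37 and 47.9 CPM, by -0.25 (adjusted p = 0.931). None of the 8 members was called by limma, where 1723 of 12752 genes had an unadjusted p under 0.05, 1.98% of genes were called higher and 0.878% lower, and the median of the members was -0.61 against 0.10 for all genes. Against untreated cultures of 24 h, LPS_hi with ATP kept Nlrp3 (4.40), Casp4 (2.48) and Nlrc4 (1.35, not called with plate as a term) called, beside 6.41% of genes called higher, while Casp1 did not differ beyond its spread (-0.22, adjusted p = 0.522). Both comparisons share the LPS_hi or untreated cultures named above. Norepinephrine with LPS_hi for 4 h gave lower Aim2 than LPS_hi alone, at 0.473, 1.5003 and 10.02 CPM (log2 difference -2.46 ± 0.59, adjusted p = 0.00682), and no other member was called, where 0.682% of genes were called lower.

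At 72 h, conditions with IFNg called Casp1 and Casp4. TNFa with IFNg (n = 8) had Nlrp3 at 34.4, 151 and 272 CPM (log2 difference 3.48 ± 0.72, adjusted p = 5.75e-05, and 2.77 with library pool as a term) and Casp1 at 193, 272 and 427 CPM, above all 25 untreated cultures (1.56 ± 0.25, adjusted p = 8.67e-08). Casp4, at 8.07, 20.4 and 40.003 CPM, and Gsdmd, at 16.4, 75.4 and 95.8 CPM, differed by 1.66 and 1.29 (adjusted p = 0.00437 and 0.00406). These 4 were called beside 4.23% of genes called higher. LPS_lo with IFNg (n = 7) raised Casp1 over LPS_lo alone, at 309, 407 and 591 CPM against 99.9, 135 and 258 CPM with no overlap (log2 difference 1.53 ± 0.30, adjusted p = 9.57e-05), where 0.847% of genes were called higher. Casp1 was the 1 member called there. IFNg alone for 72 h (n = 6) had Casp1 at 190, 307 and 389 CPM (1.65, adjusted p = 1.09e-06) and Casp4 at 15.5, 36.8 and 49.7 CPM (2.57, adjusted p = 3.85e-05), beside 3.16% of genes called higher. Its Nlrp3 values split, from 0 to 167 CPM with a median of 15.4, and did not pass.

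TNFa with PGE2 for 72 h (n = 8) raised the sensors Nlrp3 and Nlrc4, while no caspase was called, beside 3.19% of genes called higher. Nlrp3 had 29.9, 155 and 321 CPM (log2 difference 3.39 ± 0.72, adjusted p = 0.000135, and 2.54 with library pool as a term) and Nlrc4 2.18, 14.5 and 39.4 CPM (2.21 ± 0.53, adjusted p = 0.00121), whereas Casp1, at 30.2, 48.4 and 59.2 CPM, was lower in 8 of 8 cultures than the untreated median (-0.91, adjusted p = 0.00684). TNFa alone for 72 h rests on 3 cultures that disagreed with each other (Pearson's r across genes 0.651 to 0.673), with Nlrp3 at 0, 1.01 and 67.4 CPM, so comparisons with it are left out of the counts that follow where stated.

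Pycard, the adaptor gene, rose with 4 cytokines with which no other member was called. The 7 cultures given GMCSF for 72 h had 59.3, 107 and 127 CPM (log2 difference 1.47 ± 0.34, adjusted p = 0.00142), against 7.58, 35.9 and 90.2 CPM in untreated cultures. IL13 (n = 6) had 56.7, 92.6 and 193 CPM (1.499, adjusted p = 0.00524) and IL10 (n = 6) 51.9, 91.0 and 111 CPM (1.35, adjusted p = 0.0272), a call lost with library pool as a term (1.20). IL4 (n = 3) had 66.9, 129 and 140 CPM (1.65 ± 0.48, adjusted p = 0.0379), a call lost when any 1 of the 3 cultures was left out or with library pool as a term (1.49). Every culture of these 4 groups was above the untreated median, and genes called higher made up 2.19% with GMCSF, 1.27% with IL13, 0.511% with IL10 and 1.57% with IL4. In the same IL4 cultures Nlrp3 was at 0.418, 0.480 and 0.673 CPM and Casp1 at 26.9, 38.8 and 52.0 CPM, log2 differences of -2.92 and -1.24 that did not pass (adjusted p = 0.164 and 0.0516). MPP and s100B gave calls in the lower direction, beside 3.01% (MPP, 24 h), 2.94% (MPP, 72 h) and 1.39% (s100B, 24 h) of genes called lower. MPP lowered Nlrp3 at 24 h (1.16, 6.23 and 11.1 CPM, log2 difference -1.90, adjusted p = 6.76e-05, n = 8) and Casp1 at 72 h (9.17, 19.6 and 47.1 CPM, -2.09, adjusted p = 1.13e-09, n = 6), and s100B lowered Pycard at 24 h (0, 28 and 51.4 CPM, -1.21, adjusted p = 6.49e-05, n = 9, and -0.86 and not called with library pool as a term). Casp1 with MPP at 72 h was -1.40 with library pool as a term, and in that comparison the share of higher genes among all calls was 25.4%, or 60.6% after rescaling.

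**Figure D3:**
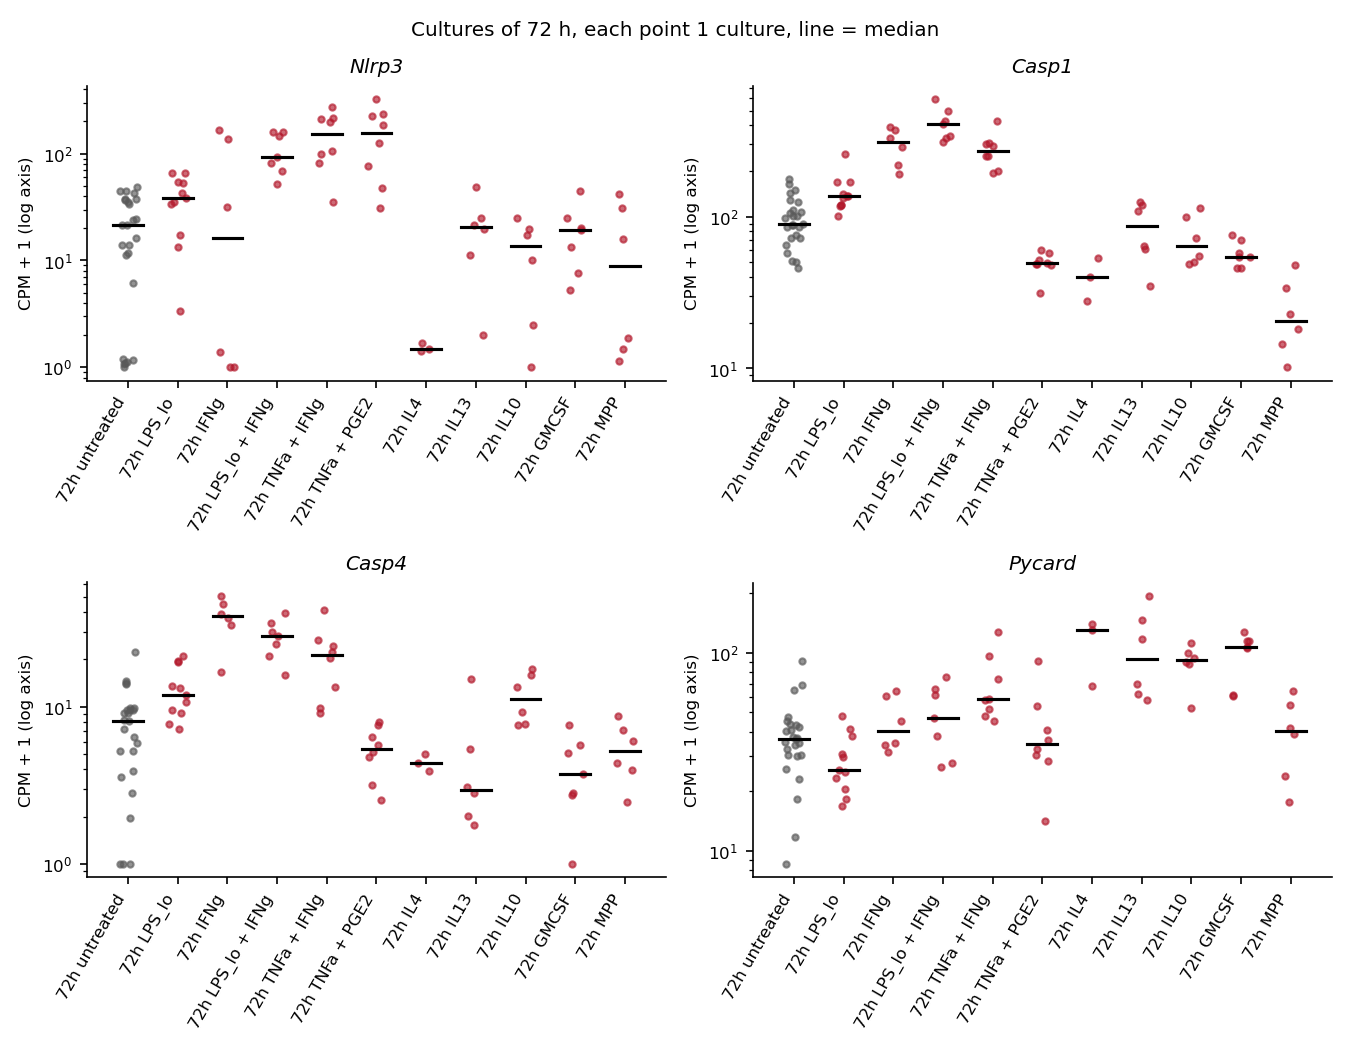
CPM + 1 on a log axis for Nlrp3, Casp1, Casp4 and Pycard in untreated cultures (grey) and 10 conditions of 72 h (red), with each point 1 culture and the line the median. Casp1 lies above all untreated cultures with IFNg alone or combined, and Pycard lies above the untreated median in every culture given IL4, IL13, IL10 or GMCSF.

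Across the whole panel, 95 conditions were set against untreated cultures, and 760 pairs of member and condition were tested. Of these pairs 87 (11.4%) were called higher and 10 (1.32%) lower, where all genes gave 2.29% of pairs higher and 4.17% lower. Nlrp3 was called higher in 19 conditions, Casp4 in 18, Casp1 in 17, Gsdmd in 14 and Nlrc4 in 10, whereas Pycard (4), Aim2 (3) and Casp8 (2) were called higher in few. Many of these conditions hold LPS, alone or with another agent, so they are not all separate stimuli. Against LPS alone, the 6 combinations of 24 h gave 0 calls among 48 pairs. In each of these 6, at most 2.06% of all genes were called higher and at most 1.11% lower. The 0 is therefore not a result particular to the members. Pycard and Aim2 were each called lower in 3 conditions, Nlrp3, Casp1, Casp4 and Casp8 in 1 each, and Gsdmd and Nlrc4 in none. TNFa for 72 h, with 3 cultures, is included in these counts and gave the lower Casp4 call. That call was lost with plate or library pool as a term. So were the lower Aim2 calls with nicotine (-1.09 with plate) and norepinephrine (-0.93 with plate) alone at 4 h. In 58 conditions no member was called and in 14 a single one. LPS_lo for 24 h and LPS_hi with minocycline for 24 h had the most, 6. With LPS_lo all 6 were higher. With minocycline 5 were higher and Pycard was lower, where 781 of 14433 genes were called higher and 2608 lower. Its Casp8 call was lost with plate (0.97) or library pool (0.60) as a term. Combined stimuli were also set against their base stimulus alone, and 13 of 200 pairs were called, where all genes gave 4.35% of pairs. Without the comparisons that rest on TNFa alone, 4 member pairs were called. Casp1 was higher with LPS_lo and IFNg (0.847% of genes called higher), and Aim2 was lower with LPS_hi and norepinephrine (0.682% lower). Nlrc4 was lower at 72 h with LPS_lo and IL4 (101 of 15469 genes lower) and with LPS_lo, IL4, IL10 and IL13 (312 lower). Both Nlrc4 calls were lost with plate or library pool as a term. The 4.35% includes the comparisons with TNFa alone, which hold many of its calls (1841 genes higher and 1481 lower for TNFa with IFNg). It is therefore not the share to set beside the 4. With resveratrol and LPS_lo for 24 h no member was called by limma against LPS_lo, where 2396 of 14433 genes had an unadjusted p under 0.05 and 2.06% of genes were called higher and 1.11% lower. Casp1 had the lowest adjusted p there (log2 difference -0.78, 8 of 8 cultures below the LPS_lo median, adjusted p = 0.109).

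**Figure D4:**
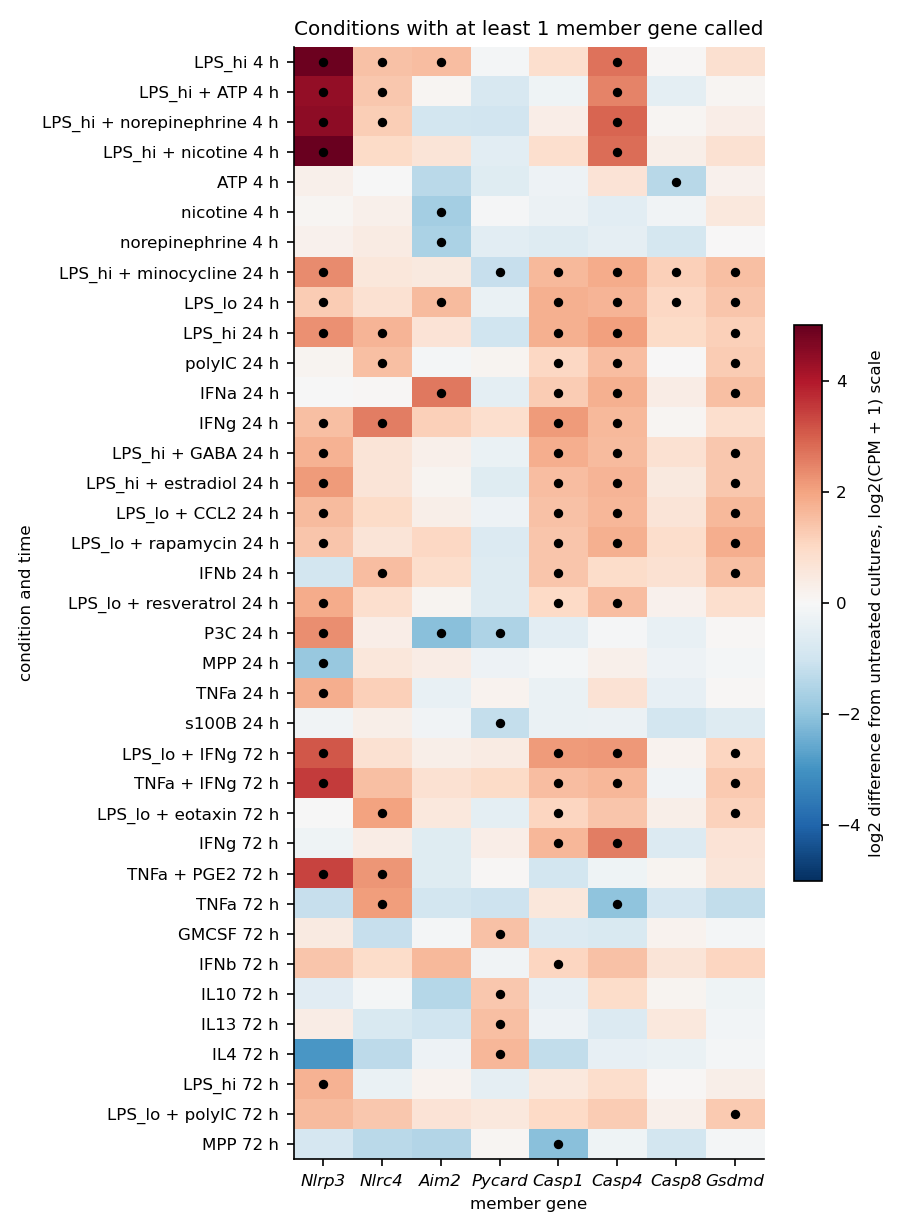
Log2 difference from untreated cultures, on the log2(CPM + 1) scale, of 8 member genes (columns) in the 37 culture conditions with at least 1 call (rows, by time), with red for higher, blue for lower and a black dot where the gene was called. LPS conditions of 24 h carry dots in Nlrp3, Casp1, Casp4 and most in Gsdmd, and Pycard carries dots alone with GMCSF, IL10, IL13 and IL4 at 72 h.

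In mice, LPS raised Casp4 and Nlrp3. The mouse and culture tables were normalized separately, so levels are not compared between them. Casp4 was at 95.5, 101, 121 and 143 CPM in the 4 LPS mice and at 10.6, 12.9, 14.9 and 15.2 CPM in the 4 PBS mice. The groups lay far apart, an 8.05-fold difference (log2 difference 3.01 ± 0.18, adjusted p = 1.11e-08). Nlrp3 was at 314, 484, 505 and 529 CPM after LPS and at 190.5, 199.6, 228 and 278 CPM after PBS, also without overlap (1.01 ± 0.17, adjusted p = 0.000788). That value sits at the 2-fold line, and leaving out each mouse in turn gave 0.94 to 1.19. Nlrp3 and Casp4 were the 2 of 7 members tested that were called, beside 5.29% of 9012 genes called higher and 3.04% lower. Casp1, at 26.4 to 39.1 CPM against 30.5 to 38.7 CPM, did not differ beyond its spread (-0.13, 95% interval -0.50 to 0.23), nor did Gsdmd (0.13, -0.25 to 0.52). Pycard (-0.37, adjusted p = 0.165) and Casp8 (-0.31, adjusted p = 0.128) lay below the PBS median in 4 of 4 mice without passing, and Aim2 (-0.15, adjusted p = 0.733) did not pass either. Nlrc4 was at 0 in all 4 PBS mice and at most 2.22 CPM after LPS. Mefv, under the filter, was at 2.78, 4.37, 4.91 and 5.56 CPM after LPS and at 0, 0, 0.145 and 0.594 CPM after PBS, and without a filter on low values it differed by 2.19 (adjusted p = 0.000716, with 3.21% of 16833 genes called higher). Pyrin is best known from neutrophils and monocytes. The summed neutrophil markers were between 179 and 328 CPM after LPS and between 81.8 and 149 CPM after PBS, with 4 of the 5 markers tested called higher. The summed monocyte markers were between 43.9 and 96.6 CPM after LPS and between 20.2 and 45.9 CPM after PBS, with 2 of 4 called higher and 1 lower, while the summed microglia markers were 46504 to 52068 and 43547 to 54602 CPM with none of 7 called. The part of other cells in the Mefv, Nlrp3 and Casp4 differences was not tested. Of all calls 63.5% were higher, and 78.8% after rescaling.

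With age, where a gene is called on the adjusted p alone and the run of library numbers is a term in the fit, 2 of 7 members tested were called, both lower, beside 6.95% of 9632 genes called higher and 3.81% lower. Nlrp3 had a lowest, median and highest value of 43.7, 93.7 and 119 CPM in the 13 mice of 22 months and of 46.8, 128 and 158 CPM in the 11 of 2 months. All 13 old mice lay below the median of the young, while the ranges overlapped (log2 difference -0.43 ± 0.09, adjusted p = 0.00106). Casp8, at 245, 475 and 560 CPM against 303, 519 and 674 CPM, differed by -0.23 ± 0.07 (adjusted p = 0.02). Neither passed without the term for the run. The mice fell into 2 runs, and no member was called in the run of 4 old and 4 young mice alone and 1 in the run of 9 old and 7 young. Casp4 (0.45, adjusted p = 0.127), Gsdmd (0.12, adjusted p = 0.478) and Casp1 (-0.01, adjusted p = 0.987) did not pass. All 6 neutrophil markers were called higher in old mice, with sums of 322 to 4045 CPM against 150 to 1213 CPM, and 3 of 7 microglia markers were called lower. Of 4 monocyte markers 3 were called higher, with sums of 57.7 to 311 CPM against 36.1 to 118 CPM, and 1 marker each of dendritic cells, T cells and astrocytes was called higher and 1 of perivascular macrophages lower. Whether these markers bear on Nlrp3 and Casp8 was not tested.

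**Figure D5:**
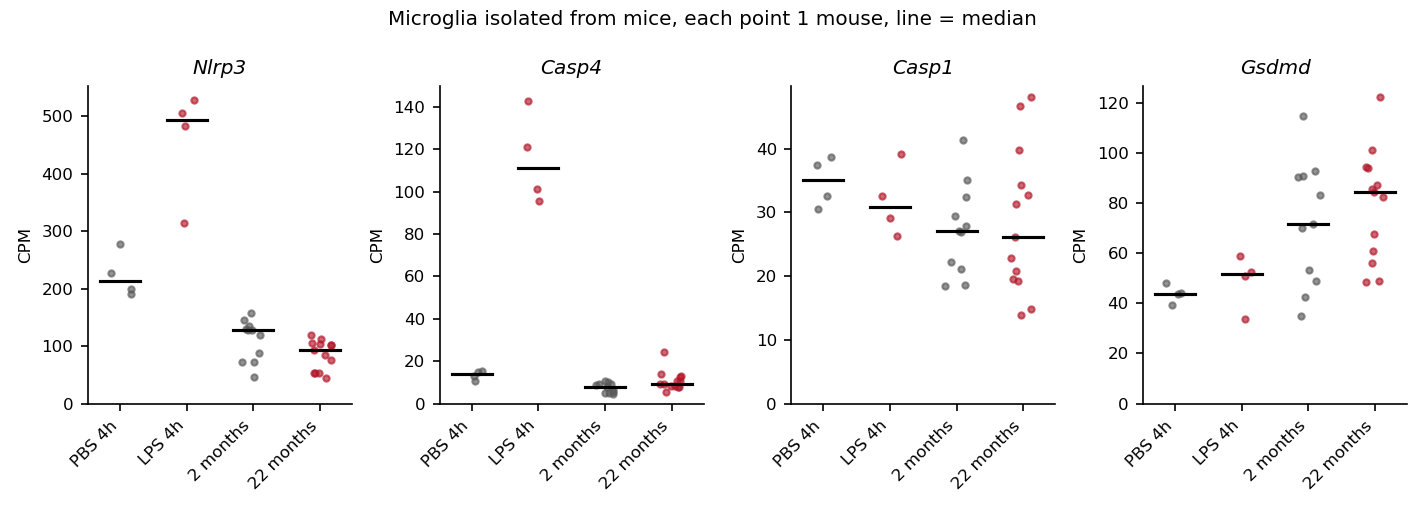
CPM of Nlrp3, Casp4, Casp1 and Gsdmd in microglia isolated from mice 4 h after PBS or LPS and from mice of 2 or 22 months, with each point 1 mouse and the line the median. Casp4 lies between 95.5 and 143 CPM after LPS and between 10.6 and 15.2 CPM after PBS, and the ages overlap for all 4 genes.

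The other genes of the pathway, a list of 34 of which 26 to 28 were tested in cultures, were read beside the members. After LPS_hi for 4 h, Il1b, which codes for the cytokine that caspase-1 matures, had 881, 1401 and 1881 CPM against 0, 9.22 and 65.3 CPM in untreated cultures (log2 difference 6.86 ± 0.52, adjusted p = 4.77e-22), and Il1a (6.58), Il18 (2.63), the receptor antagonist Il1rn (2.97) and Il18bp (1.51) were called higher too, 5 of 5 tested. The guanylate-binding proteins, which open bacteria and help caspase-11 reach LPS, rose together with Gbp5 at 7.005, Gbp3 at 5.32, Gbp2 at 5.22 and the related GTPase Gm12250 at 2.39, 4 of 4 tested. Among the sensors and partners none of 8 was called higher and 5 were called lower, in a comparison where 32.3% of all genes were called lower and the times differ. They included P2rx7, the receptor for extracellular ATP, at 2.81, 23.4 and 94.2 CPM against 38.6, 115 and 241 CPM (-2.67 ± 0.33, adjusted p = 2.42e-11), and Txnip, which binds NLRP3, at 22.7, 38.97 and 70.7 CPM against 79.6, 247 and 647 CPM (-2.60 ± 0.24, adjusted p = 3.27e-17). Naip5 and Naip6, also among the 5, are near-identical copies whose reads may be split between paralogs, so their values are uncertain. Of 9 genes of lytic death and caspases, Cflar (3.46), Zbp1 (3.34), Mlkl (2.84) and Ninj1 (1.33) were called higher. In all, 13 of 26 were called higher and 5 lower, beside 7.22% and 32.3% of all genes.

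At 24 h of LPS_hi 12 of 28 list genes were called higher and 2 lower, the lower ones being P2rx7 (-1.003) and Txnip (-1.74), beside 6.17% of all genes higher and 12.8% lower. With P3C the counts were 5 and 5 of 28, beside 3.98% and 23.3% of all genes. P3C raised Il1b (28.4, 609 and 972 CPM, log2 difference 5.07) and Il1a (4.33), did not raise Il1rn (0.20, adjusted p = 0.743), and gave lower Il18 (-1.29, adjusted p = 0.00407). None of its 4 GTPases was called. Against LPS_hi, 12 of the 28 were lower after P3C, among them Gbp3 (-5.29), Il1rn (-5.15), Gbp5 (-5.004), Gbp2 (-4.59), Il18 (-3.56) and Il18bp (-3.22), and none was higher, beside 12.2% and 3.03% of all genes. IFNa gave 12 of 28 higher and none lower, beside 4.06% and 11.5% of all genes, and IFNg 9 higher and 2 lower, beside 5.45% and 5.24%, the lower ones being Il1b (-1.29) and Il1a (-1.74). All 4 GTPases were called higher with polyIC and with each interferon. With ATP added to LPS_hi at 4 h, Il1rn was at 418, 613 and 693 CPM against 74.5, 151 and 279 CPM without overlap (1.86 ± 0.38, adjusted p = 0.000446), and Pstpip1, a binding partner of pyrin, was at 4.03, 11.9 and 16.8 CPM against 0.345, 1.67 and 4.46 CPM (2.03 ± 0.53, adjusted p = 0.0114). These were the 2 of 26 called, beside 1.98% of all genes called higher. Il1b did not pass, at 454, 733 and 844 CPM against 881, 1401 and 1881 CPM (-0.97, adjusted p = 0.637). The rise of Il1rn was not confined to cultures with LPS. With ATP alone for 4 h it was at 27.3, 265 and 354 CPM (3.20 ± 0.32 over untreated cultures of 24 h, adjusted p = 3.76e-13 by limma). At 24 h of ATP alone its difference was 1.81 (adjusted p = 0.000449). In LPS mice 8 of 20 list genes were called higher and none lower, beside 5.29% and 3.04% of all genes, including Il1b (5.15), Il1rn (4.32), Gbp5 (3.94) and Gbp2 (3.05), while Il18 was not (-0.17, adjusted p = 0.63). In old mice 4 of 19 were called higher, Zbp1 (1.41), Gbp2 (1.04), Il1b (0.92) and Gbp5 (0.72), and 1 lower, Txnip (-0.24), beside 6.95% and 3.81% of all genes. Il1b was low at both ages, and its median of 7.34 CPM in old mice lay under the highest young value of 7.46 CPM. Markers of neutrophils and monocytes were also called higher in old mice. Whether other cells bear on the list genes of either mouse comparison was not tested.

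Over the means of the 97 culture conditions with at least 2 cultures, the genes most like each member among 16942 were found by Pearson's r, as a description. The conditions share untreated controls, plates and lots, and carry no p. The nearest genes of Nlrp3 were Tnfaip3 (0.89), Marcksl1 (0.87) and Nfkb2 (0.83), and those of Casp4 were Gbp3 (0.89), Sp140 (0.87) and Parp14 (0.87). Genes near Casp1 included Ctsc (0.83) and Fcgr4 (0.82), and genes near Gsdmd included Parp10 (0.85) and Enpp4 (0.84). Within 24 h alone the values were higher for the effectors, with Casp1 at 0.95 to Gbp3 and Gsdmd at 0.95 to Znfx1 over 45 conditions. Over all times Aim2 had 0.79 to Trim34a, Nlrc4 0.75 to Cdyl2, Pycard 0.68 to Dnajc9 and Casp8 0.67 to Dync1i2, and within 24 h Casp8 had 0.90 to Ubr4 and Pycard 0.78 to Fam167b. Between members the highest all-times values were 0.67 for Casp1 and Gsdmd, 0.64 for Casp4 and Gsdmd and 0.61 for Casp1 and Casp4 and for Nlrp3 and Casp4. Nlrp3 and Casp1 had 0.24 over all times, 0.47 within 24 h and 0.43 within 72 h. Pycard and Nlrp3 had -0.31, -0.47 and -0.06, and Pycard and Nlrc4 -0.34, -0.05 and -0.41, in the same order.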

How the data were processed

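The deposited tables hold CPM per gene. The authors made them from 3′-end RNA-seq reads with Salmon 0.7.1 and an Ensembl mouse build, as their methods state. Those methods do not name GRCm38, which was used here for gene positions, and the labels' list of builds names mm8. Their methods call the values TPM, but each culture sums to 996125 to 999918 without a length term, and they were treated as CPM. The mouse samples sum to 885237 to 983443 over the listed genes, so their totals are less even than those of the cultures. Whole reads could not be recovered for nearly all genes (70.1% to 89.0% of low values were whole multiples within 0.1 in cultures), so no count test was run. Depth was estimated from the steps of low values.

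Groups came from the labels. Replicates are numbered in accession order and p-values measure the spread between these samples, which may be technical. Tests used limma 3.58.1 in R 4.3.3 on log2(CPM + 1), with genes above 5 CPM in at least 4 samples of the fit (11 for aging) and Benjamini-Hochberg adjustment over all genes tested. All groups of 24 h shared a fit, as did those of 72 h, and the groups of 4 h were fitted with untreated cultures of 24 h. The scripts, in Python 3.11.15 and R, were tested on simulated data. The named genes are the 9 members, a list of 34 pathway genes and, of the 3 genes most like each member, those given in the text; 1 gene is not reported here. The members and lists were chosen with earlier results of these data known. Alternatives varied the pseudocount (0.5 or 5), filter, scaling, fold rule, plate, pool, depth, samples and test.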

Additional observations from a re-analysis of the deposited data

Results flagged for a closer look

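In groups of 4 to 10 samples, 117 pairs of group and member were checked for a sample far from the others. Of these 9 were flagged, where chance flags about 1 in 20. In the 8 polyIC cultures of 24 h, 1 sample stood far from the rest in several genes, with Nlrp3 at 155 CPM as the highest value and Casp4 at 7.69, Pycard at 9.46 and Gsdmd at 13.6 CPM as the lowest. The lowest Nlrp3 value after IFNb was 0.471 CPM, the lowest Aim2 value after IFNg was 0 CPM, and the lowest Nlrc4 value after P3C was 0 CPM. At 72 h the lowest Aim2 value after LPS_lo with IFNg was 0.592 CPM and the lowest Gsdmd value after TNFa with IFNg was 16.4 CPM.

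Nlrp3 after LPS_hi differed between the times, with a log2 difference of -2.62 at 24 h against 4 h by limma. A single LPS_hi culture of 72 h whose label gives the lower dose of 0.00001 µg/µl was used in no comparison. It had Casp1 at 212 CPM and Aim2 at 56.6 CPM, above the highest untreated cultures of 72 h at 177 and 41.1 CPM.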

How the results depend on the processing

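No paired analysis was possible because the labels give no replicate numbers to pair cultures by; fits with the shared plate or library pool as a term were run in its place. No result reversed under any alternative run. With the exact rank-sum test and Bonferroni correction, the members called went from 4 to 0 for polyIC, 3 to 1 for P3C, 1 to 0 for ATP at 4 h, 4 to 2 for LPS_hi at 4 h, 1 to 0 for LPS_hi at 72 h and 4 to 1 for TNFa with IFNg, and Aim2 with IFNa, Nlrp3 with IFNg and Nlrc4 with IFNb or with LPS_hi at 24 h lost their calls too. Without a minimum fold they went from 3 to 7 for IFNb, 0 to 1 for IL4 at 24 h and 1 to 4 for LPS_hi at 24 h against 4 h. LPS_hi with ATP against LPS_hi went from 0 to 1 with plate or pool as a term, pseudocount 5, the filter on the larger share of samples, median-of-ratios scaling or cultures of at least 2 M reads, and leaving out each culture gave 0 to 1, with 1 without LPS_hi with ATP replicate 2 or LPS_hi replicate 7. With pool as a term, ATP at 4 h and IL4 at 72 h went from 1 to 0, P3C against LPS_hi from 5 to 3 and LPS_hi at 24 h against 4 h from 1 to 4. That last count was 3 with plate as a term and 2 after rescaling. IL4 at 72 h had 2 with pseudocount 5, the stricter filter, rescaling or only its 2 groups, and 0 without any 1 of its cultures. LPS_hi at 72 h had 0 without a filter or with only its 2 groups, LPS_lo with IFNg against LPS_lo had 3 with only its 2 groups, and IFNa against IFNb had 1 with pseudocount 5. Leaving out each mouse gave 1 to 2 calls for LPS mice, with 1 without PBS replicates 2 or 4 or LPS replicates 1, 2 or 3, and ATP at 4 h kept 1 throughout. Aging had 0 with the 2-fold rule, 0 without the run term, 0 in the run 7441 to 7448 and 1 in the run 10994 to 11010. Combinations against their base stimulus had 4 calls without those against TNFa alone, where 13 were called in all. The causes were not tested. Genes near 5 CPM, such as Aim2, Casp4 and Nlrc4 in untreated cultures, rest on few reads in libraries of 1.00 M reads.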
